A study of Mus musculus with 20 samples.

Results

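The comparison described here sets 7 mouse hearts with myocardial infarction added to CIH (MI+CIH) against 4 hearts with CIH alone. The labels give CIH as letters only, taken here to mean chronic intermittent hypoxia, in which oxygen is lowered again and again to mimic sleep apnoea. All animals were C57BL/6J mice, and the study held 20 hearts in all, with 4 hearts with infarction alone (MI) and 5 sham hearts beside these 11. The labels used here give no age, sex, infarct size, heart region, or timing of infarction or hypoxia, and they do not say what operation the CIH hearts had. Small RNA was sequenced from total heart RNA, and the deposited table gives each miRNA in RPM, its reads per 1000000 miRNA reads of the library. Of 1545 entries, 360 reached 5 RPM in at least 4 of the 20 libraries, and all 360 were tested. Only 2 of these 360 were predicted miRNAs without a miRBase name.

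MicroRNAs are short RNAs that pair with messenger RNAs, mainly through a seed near their 5′ end, and lower the translation or stability of those messages. Heart muscle cells carry a well known set of them, miR-1, miR-133, miR-208 and miR-499, while fibroblasts, leukocytes, blood vessels and red blood cells each bring others. After an infarction muscle is lost, leukocytes enter and fibroblasts build a scar, so the miRNAs of whole heart tissue mix these cell types. In such bulk samples fewer cells of a type and less RNA per cell cannot be told apart.

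The mature sequences of the miRNAs on which the results turn are printed from RefSeq (GRCm38.p6), 5′ to 3′, with the seed (bases 2 to 8) in capitals. The first set is the let-7 family, shown because all 9 tested members share 1 seed, GAGGUAG, and all rose in MI+CIH hearts.
let-7e-5p: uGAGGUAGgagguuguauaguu
let-7b-5p: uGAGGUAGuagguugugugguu
let-7c-5p: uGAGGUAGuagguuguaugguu
let-7i-5p: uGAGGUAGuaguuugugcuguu
miR-98-5p: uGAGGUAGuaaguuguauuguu

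The second set holds other miRNAs that rose. Both arms of miR-214 and miR-199a are shown because each arm carries a seed of its own, miR-34b and miR-34c because their 3p arms share a seed, and miR-146a and miR-146b because they share a seed and differ towards the 3′ end.
miR-199a-5p: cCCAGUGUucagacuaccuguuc
miR-199a-3p: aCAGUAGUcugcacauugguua
miR-214-5p: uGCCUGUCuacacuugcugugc
miR-214-3p: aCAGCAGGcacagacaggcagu
miR-34b-3p: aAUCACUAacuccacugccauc
miR-34c-3p: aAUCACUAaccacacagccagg
miR-146a-5p: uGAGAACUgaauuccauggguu
miR-146b-5p: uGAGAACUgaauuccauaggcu
miR-206-3p: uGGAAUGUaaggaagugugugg

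The last set holds 4 of the 8 entries that fell, shown because so few miRNAs were lower.
miR-499-5p: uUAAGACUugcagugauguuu
miR-135a-5p: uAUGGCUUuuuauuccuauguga
miR-101a-3p: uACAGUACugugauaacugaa
miR-192-5p: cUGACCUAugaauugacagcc

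The libraries held 1991323 to 18014081 miRNA reads in MI+CIH hearts and 7155924 to 11985699 in CIH hearts, so that 3 reads, about the most that a count of 0 allows for, were worth 0.167 to 1.51 RPM in MI+CIH and 0.250 to 0.419 RPM in CIH. Such floors cover counting error only. Clustering of all 20 libraries by their miRNA profiles gave 3 sets, here called A, B and C, for which no label accounts. In set A were MI+CIH 1 and all CIH hearts, with MI 2 and all sham hearts. Set B held MI+CIH 2 to 5 with MI 1 and MI 3, and set C held MI+CIH 6 and 7 with MI 4. Among the 11 hearts, Pearson's r across miRNAs was 0.908 to 0.994 within a set (17 pairs) and 0.71 to 0.932 between sets (38 pairs). For 6 of the 7 MI+CIH hearts, library set and infarction therefore cannot be told apart, and results are given also for MI+CIH 1 alone. Nothing in the labels says that the hearts of a group came from separate litters or cohorts, so p-values measure the spread between these samples.

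Infarction added to CIH went with a broad shift of the heart's miRNA profile. By limma on log2(RPM + 1), with Benjamini-Hochberg adjustment over the 360 miRNAs and a threshold of 0.05, 205 miRNAs (56.9%) differed between MI+CIH and CIH hearts. Of these, 197 (54.7%) were higher and 8 (2.22%) lower in MI+CIH, and 227 had an unadjusted p under 0.05. The median log2 change over all 360 was 1.51, and 315 of 360 (87.5%) were above 0. In 100 miRNAs (27.8%) every MI+CIH heart lay above every CIH heart, and in 2 (0.556%), miR-499-5p and miR-135a-5p, every MI+CIH heart lay below.

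Part of this shift moved with a single pair of entries. The muscle miRNA miR-1 is listed as miR-1a-3p and miR-1b-5p with near-identical reads, so the table total holds these reads under both entries. Together the entries made up 13.8 to 52.5% of that total in MI+CIH libraries and 49.1 to 62.8% in CIH libraries. miR-1a-3p alone was at 69203 to 262684 RPM in MI+CIH and 245804 to 314224 RPM in CIH libraries. Every other miRNA is scaled to the same total. With these 2 entries left out of the totals, an alternative chosen after seeing the data, 149 of 358 miRNAs were called, 133 higher and 16 lower, and the median change was 1.01. With median-of-ratios scaling, which centres the bulk of miRNAs, the median change was 0.07, and 97 were called, 49 higher (13.6%) and 48 lower (13.3%). All 49 were among the 197, and the 8 lower ones were among the 48. TMM, another centring method, gave 37 higher (10.3%) and 53 lower (14.7%). On reads recovered from the RPM, edgeR's quasi-likelihood test called 38 higher (10.6%) and 37 lower (10.3%), and DESeq2 92 higher (25.6%) and 41 lower (11.4%). A change above 0 in RPM is thus read below against the median of 1.51, and the value with median-of-ratios scaling is given beside most named miRNAs.

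**Figure D1:**
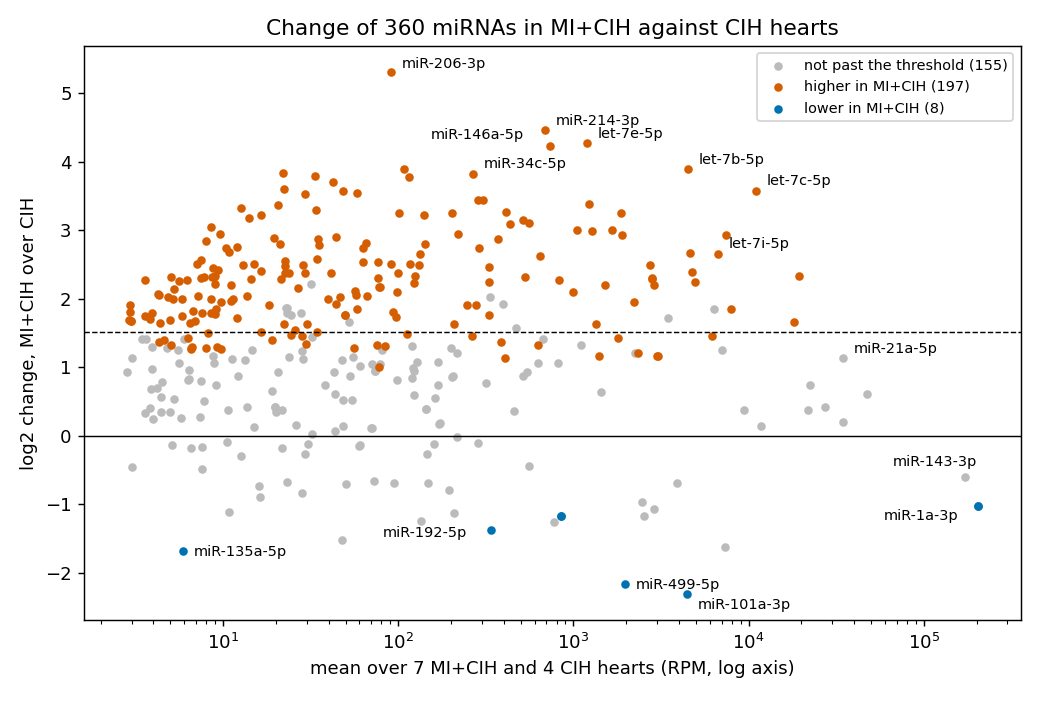
Mean level over the 11 hearts (RPM, log axis) against the log2 change of MI+CIH over CIH for 360 miRNAs, coloured by the limma call, with the median change of 1.51 dashed. Most points lie above 0, the let-7 members and miR-214-3p stand well above the dashed line, and the 8 lower miRNAs include miR-1a-3p, the most abundant of all.

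The 7 MI+CIH hearts did not move by the same amount. Relative to the CIH mean, the median log2 difference over 360 miRNAs was 0.54 in MI+CIH 1, 2.04, 2.22, 1.68 and 2.23 in MI+CIH 2 to 5, and 0.99 and 1.05 in MI+CIH 6 and 7. MI+CIH 1 lay above all 4 CIH hearts for 192 miRNAs (53.3%) and below all 4 for 48 (13.3%). Among the 197 higher miRNAs, MI+CIH 1 had a positive difference in 173 and was above all CIH hearts in 134. When library set was added to the model as a term, limma called 0 miRNAs (62 at unadjusted p under 0.05, smallest adjusted p = 0.115), with a median change of 0.42, and 178 of the 197 and 7 of the 8 kept their sign. With set A alone, where MI+CIH 1 is the only MI+CIH heart and is assumed to vary like the others, limma also called 0 (93 at unadjusted p under 0.05, smallest adjusted p = 0.0699). Without the 4 set B hearts limma called 80, of which 73 were higher and 7 lower.

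The let-7 family, miRNAs best known for holding back growth and marking differentiated cells, rose as a block in the group means. Of 10 listed members 9 were tested, and all 9 rose, against 54.7% higher over all miRNAs. Their median log2 change was 2.93, against 1.51 over all miRNAs tested. With median-of-ratios scaling the median was 1.25 and 6 of the 9 were called, all higher. TMM scaling left 3 calls, edgeR 5 and DESeq2 7. Their summed level was 14489 to 153225 RPM in MI+CIH hearts and 8690 to 10894 RPM in CIH hearts. MI+CIH 1 held the lowest of the MI+CIH sums, and every MI+CIH heart lay above every CIH heart. In MI+CIH 1 alone, 8 of the 9 were above the CIH mean. Their median difference there was 0.48, not above the 0.54 over all miRNAs in that heart. With library set as a term the median change was 0.48, against 0.42 over all miRNAs. Without the 4 set B hearts 6 of the 9 were called, and let-7a-5p, let-7b-5p and let-7d-5p were not, at log2 changes of 1.34, 2.07 and 1.72 (adjusted p = 0.116, 0.0744 and 0.0904).

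let-7c-5p was at 1448 RPM in the lowest MI+CIH heart, 12206 in the median and 39876 in the highest, against 1014, 964, 916 and 908 RPM in the 4 CIH hearts. Its log2 change was 3.58 (SE 0.70, adjusted p = 0.00127), and 1.90 with median-of-ratios scaling (adjusted p = 0.0107). let-7e-5p had 117 RPM in the lowest, 1919 in the median and 4624 in the highest MI+CIH heart, and 64.6, 48.8, 50.2 and 47.3 RPM in CIH hearts, a log2 change of 4.27 (SE 0.89, adjusted p = 0.00196; 2.61 with median-of-ratios scaling, adjusted p = 0.00770). Without the set B hearts the changes were 2.29 for let-7c-5p and 2.35 for let-7e-5p, both still called (adjusted p = 0.0267 and 0.0479). In both miRNAs the groups did not overlap, as in 6 of the 9 members and 27.8% of all miRNAs. The lowest heart in both was MI+CIH 1, which stood much nearer to CIH than to the other infarcted hearts.

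let-7b-5p reached 361 RPM in the lowest, 5982 in the median and 18022 in the highest MI+CIH heart, and 243 to 288 RPM in CIH hearts, with a log2 change of 3.89 (SE 0.87, adjusted p = 0.00264; 2.21 with median-of-ratios scaling). let-7i-5p, at 3012 RPM in the lowest, 10154 in the median and 12902 in the highest MI+CIH heart and 1185 to 1591 RPM in CIH hearts, changed by 2.66 (SE 0.46, adjusted p = 0.000712), which was among the 5 smallest p-values of the comparison. With median-of-ratios scaling let-7i-5p was at 0.98 and called (adjusted p = 0.0391), but its call was lost with TMM scaling (adjusted p = 0.121) and with edgeR (adjusted p = 0.103). miR-98-5p, the family member with a separate name, had the smallest change of the 9, 2.04, with 22.9 to 133 RPM in MI+CIH and 14.7 to 21.9 RPM in CIH hearts, and was at 0.40 and not called with median-of-ratios scaling (adjusted p = 0.453). Within the family the order of change was thus let-7e, let-7b and let-7c at the top and let-7f, let-7g and miR-98 at the bottom, although all carry the same seed. let-7a-5p, let-7d-5p and let-7g-5p in MI+CIH 1 lay inside the CIH range, at 1068, 169 and 1332 RPM, so for these 3 the rise rested on the hearts of sets B and C.

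let-7e lies beside miR-125a on chromosome 17 (chr17:17830352-17830879, plus strand), let-7e in an intron and miR-125a overlapping an exon of Spaca6. All 4 tested arms of this pair rose, with a median log2 change of 2.90. miR-125a-5p was at 146 RPM in the lowest, 1477 in the median and 4617 in the highest MI+CIH heart, and at 76.4, 92.1, 130 and 109 RPM in CIH hearts. Its change was 3.39 (SE 0.80, adjusted p = 0.00272), and 1.72 with median-of-ratios scaling; without the set B hearts it was 1.58 and not called (adjusted p = 0.0977). miR-125a-5p, miR-125b-5p and miR-351-5p share the seed CCCUGAG, and all 3 rose, with a median of 2.67. Over the list of miR-99/100 and miR-125, whose genes often neighbour let-7 genes, 6 of 9 tested members rose and none fell, with a median of 2.41. That count was near the 54.7% higher over all miRNAs. With median-of-ratios scaling the median was 0.85, with 1 member called higher and 1 lower. Without the set B hearts limma called 0 of these 9 (2 at unadjusted p under 0.05).

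**Figure D2:**
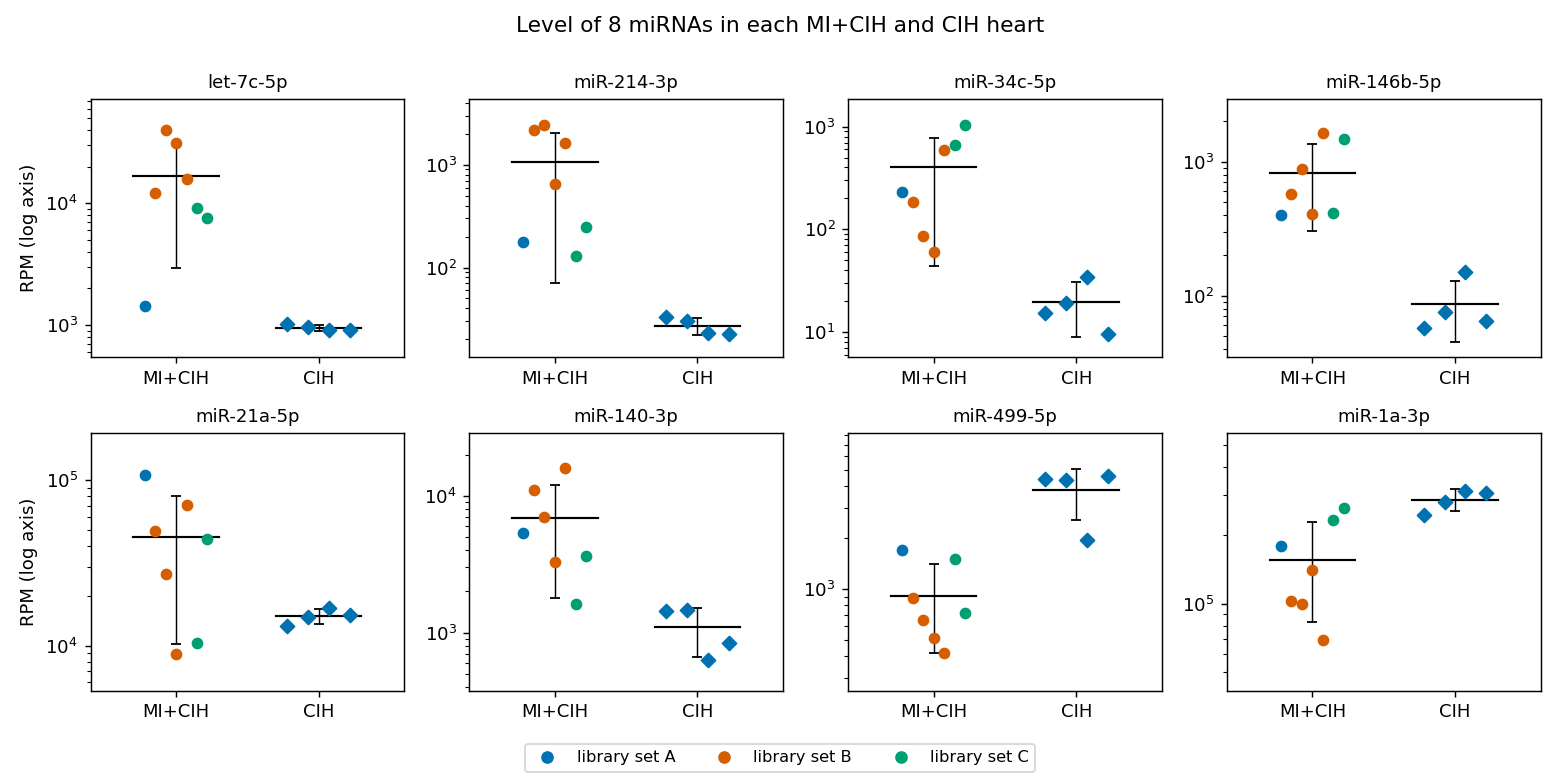
Level of 8 miRNAs (RPM, log axis) in each MI+CIH heart (circles) and CIH heart (diamonds), coloured by library set, with mean (line) and SD (bars). MI+CIH hearts lie above CIH hearts for let-7c-5p, miR-214-3p, miR-34c-5p, miR-146b-5p and miR-140-3p and below them for miR-499-5p, while miR-21a-5p spreads from 8888 to 108142 RPM in MI+CIH.

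The miR-199/miR-214 group, abundant in fibroblasts and other mesenchymal cells, held some of the largest changes. Of 5 tested members 4 rose, against 54.7% higher over all miRNAs, and none fell. Their median log2 change was 3.16 (1.5 with median-of-ratios scaling, where 2 of the 5 were called, both higher). Their summed level was 1278 to 7192 RPM in MI+CIH hearts and 191 to 438 RPM in CIH hearts, without overlap. The part of fibroblast content in this result was not tested.

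miR-214-3p was at 130 RPM in the lowest, 643 in the median and 2407 in the highest MI+CIH heart, against 33.0, 29.9, 23.2 and 22.4 RPM in CIH hearts. Its log2 change was 4.46 (SE 0.96, adjusted p = 0.00202), and 2.81 with median-of-ratios scaling (adjusted p = 0.00877). Without the 4 hearts of set B it was 2.70 and just missed the threshold (adjusted p = 0.0510). The passenger arm miR-214-5p had 13.1 to 112 RPM in MI+CIH and 2.22 to 4.84 RPM in CIH hearts, a log2 change of 3.71 (SE 0.65, adjusted p = 0.000771), and of 2.21 with median-of-ratios scaling (adjusted p = 0.0110). Both arms were non-overlapping, as were 27.8% of all miRNAs. In MI+CIH 1 both arms were higher than in any CIH heart, at 178 and 22.3 RPM.

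miR-199a-3p was at 565 RPM in the lowest, 2786 in the median and 4539 in the highest MI+CIH heart, and at 314, 313, 134 and 263 RPM in CIH hearts. Its log2 change was 3.01 (SE 0.65, adjusted p = 0.00202), but with median-of-ratios scaling it was 1.33 and not called (adjusted p = 0.108). miR-199a-5p ranged from 55.7 to 2035 RPM in MI+CIH and from 29.3 to 86.7 RPM in CIH hearts, with a log2 change of 3.16 (SE 0.80, adjusted p = 0.00381). Its call too was lost with median-of-ratios scaling (1.5, adjusted p = 0.208), TMM scaling (1.31, adjusted p = 0.308) and edgeR (2.28, adjusted p = 0.0974). MI+CIH 4 lay inside the CIH range, while MI+CIH 1, at 741 RPM, lay far above it. The related miR-199b-5p did not pass the test (log2 change 1.67, adjusted p = 0.211), with 1.0 to 294 RPM in MI+CIH and 2.03 to 10.9 RPM in CIH hearts. Without the set B hearts its change was 4.46 and past the threshold (adjusted p = 0.00394). miR-199a-2 (chr1:162217814-162217923) and miR-214 (chr1:162223368-162223477) are neighbours on the plus strand of chromosome 1, in exons of the noncoding RNA Dnm3os and opposite an intron of Dnm3. Which gene gave the reads of the miR-199a arms was not determined.

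miR-21, a miRNA of stressed fibroblasts and macrophages and one of the most studied in heart scarring, did not pass the test. miR-21a-5p was at 8888 RPM in the lowest, 44349 in the median and 108142 in the highest MI+CIH heart, against 13116, 14896, 16956 and 15319 RPM in CIH hearts. The log2 change was 1.13 (SE 0.59, adjusted p = 0.103), below the median of all miRNAs, and it turned to -0.55 with median-of-ratios scaling. The highest value was that of MI+CIH 1, 5 of 7 hearts lay above every CIH heart, and MI+CIH 4 and 6 lay below every CIH heart. The call depended on single hearts, since the adjusted p was 0.0330 without MI+CIH 4 (log2 change 1.45) and 0.0370 without MI+CIH 6 (1.41).

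In the miR-34 family, which p53 induces and which slows the cell cycle, all 4 tested members of 7 listed rose (54.7% over all miRNAs). Their median log2 change was 3.58, the highest of the 28 lists examined. It was 2.20 with median-of-ratios scaling, where the 3p arms of miR-34b and miR-34c were called. Both of these arms were under 5 RPM in every CIH heart. Among the 11 hearts they could thus pass the filter only through MI+CIH hearts, which favours a rise. All 4 stayed called without the set B hearts. miR-34c-5p was at 59.8 RPM in the lowest, 233 in the median and 1027 in the highest MI+CIH heart, against 15.4, 19.2, 34.5 and 9.45 RPM in CIH hearts. It changed by 3.82 on the log2 scale (SE 0.74, adjusted p = 0.00122; 2.19 with median-of-ratios scaling, adjusted p = 0.0533). miR-34b-3p had 3.00 to 57.9 RPM in MI+CIH and 0.417 to 2.71 RPM in CIH hearts, a log2 change of 3.83 (SE 0.63, adjusted p = 0.000712).

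Both groups were apart for these 2 miRNAs, as in 27.8% of all miRNAs. The order of the hearts was not that of let-7: MI+CIH 5, 6 and 7 were highest for miR-34c-5p, and MI+CIH 1 stood at its median. miR-34c-3p changed by 3.33 and miR-34a-5p, from a separate gene on chromosome 4, by 2.06 (adjusted p = 0.00429; 0.45 with median-of-ratios scaling). miR-34b (chr9:51103562-51103645) and miR-34c (chr9:51103034-51103110) lie next to each other on the minus strand of chromosome 9, opposite an intron of Btg4.

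miR-140 and miR-455, known from cartilage and its matrix, rose in all 4 tested arms, against 54.7% higher over all miRNAs. Their median log2 change was 2.45 (0.82 with median-of-ratios scaling). miR-140-3p was at 1624 RPM in the lowest, 5394 in the median and 16132 in the highest MI+CIH heart, against 1448, 1454, 626 and 839 RPM in CIH hearts. The log2 change was 2.39 (SE 0.57, adjusted p = 0.00272), the median heart was MI+CIH 1, and the groups did not overlap. miR-455-3p, with 24.9 to 402 RPM in MI+CIH and 5.74 to 11.3 RPM in CIH hearts, changed by 3.77 (SE 0.70, adjusted p = 0.00112), and by 2.16 with median-of-ratios scaling (adjusted p = 0.00521).

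The other arms were less firm. miR-455-5p reached 539 and 461 RPM in MI+CIH 6 and 7 and 9.04 to 90.1 RPM in the other 5 MI+CIH hearts, against 7.35 to 20.8 RPM in CIH hearts. Its change of 2.50 (adjusted p = 0.0213; 4.35 without the set B hearts) lost its call without CIH 1 (adjusted p = 0.0506) or CIH 3 (adjusted p = 0.0628), with median-of-ratios scaling (0.92, adjusted p = 0.518) and with edgeR (adjusted p = 0.131). miR-140-5p changed by 1.31 (adjusted p = 0.0348), and leaving out any of MI+CIH 1, 6 or 7 or CIH 1, 3 or 4 ended the call, with adjusted p between 0.0550 and 0.0872; its change was 2.20 without the set B hearts and -0.33 with median-of-ratios scaling. miR-140-3p just missed the threshold without the set B hearts (log2 change 1.63, adjusted p = 0.0514), and with median-of-ratios scaling it was at 0.72 and not called (adjusted p = 0.208).

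Leukocyte miRNAs split by gene. Of 9 tested members 6 rose, near the 54.7% higher over all miRNAs, and none fell, with a median log2 change of 2.30 (0.67 with median-of-ratios scaling, where 2 were called higher and 1 lower). Their summed level was 1054 to 4488 RPM in MI+CIH hearts and 380 to 740 RPM in CIH hearts, without overlap. The part of leukocyte content in the other results was not tested.

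miR-146a and miR-146b, which NF-kappaB induces and which damp innate immune signalling, led the list. miR-146a-5p was at 101 RPM in the lowest, 1014 in the median and 2356 in the highest MI+CIH heart, against 25.9, 40.2, 68.3 and 44.7 RPM in CIH hearts, a log2 change of 4.23 (SE 0.81, adjusted p = 0.00117). miR-146b-5p had 403 RPM in the lowest, 577 in the median and 1628 in the highest MI+CIH heart, and 57.9, 76.0, 150 and 64.9 RPM in CIH hearts, a log2 change of 3.10 (SE 0.52, adjusted p = 0.000712). Both stayed called with median-of-ratios scaling, at 2.57 (adjusted p = 0.0138) and 1.43 (adjusted p = 0.0203), but miR-146b-5p lost its call with TMM scaling (1.24, adjusted p = 0.0586) and with edgeR (1.39, adjusted p = 0.0626). No MI+CIH heart reached down to a CIH heart in either, and in MI+CIH 1 the difference from the CIH mean was larger for miR-146b-5p than for miR-146a-5p on the log2 scale.

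miR-223-3p, a marker of neutrophils and monocytes, was at 17.5 RPM in the lowest, 24.3 in the median and 84.3 in the highest MI+CIH heart, and at 5.31, 6.09, 5.70 and 6.75 RPM in CIH hearts. Its log2 change was 2.38 (SE 0.50, adjusted p = 0.00199), without overlap, and 0.83 with median-of-ratios scaling (adjusted p = 0.130). miR-155-5p, made by activated lymphocytes and macrophages, changed by 2.79 (adjusted p = 0.00434). It had 83.4 to 480 RPM in MI+CIH 2 to 7, while MI+CIH 1 at 18.3 RPM lay inside the CIH range of 13.8 to 28.1 RPM, and without the set B hearts its change was 1.42 and not called (adjusted p = 0.151). With median-of-ratios scaling it was 1.15 and not called (adjusted p = 0.0887). miR-142, found in all blood cell lineages, did not pass the test in either arm. miR-142a-5p had 21.1 to 405 RPM in MI+CIH and 107 to 363 RPM in CIH hearts (log2 change -0.79, adjusted p = 0.277), and was called lower with median-of-ratios scaling (-2.44, adjusted p = 0.0225). miR-142a-3p had 32.6, 51.3 and 96.0 RPM in MI+CIH 1, 6 and 7 and 0.502 to 4.25 RPM in MI+CIH 2 to 5, against 5.17 to 9.26 RPM in CIH hearts, so the set B hearts were below and the others above the CIH hearts. Over all hearts its log2 change was 0.42, and it was 2.80, past the threshold, without the set B hearts (adjusted p = 0.0179).

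miR-210, the miRNA that hypoxia-inducible factor raises in cells short of oxygen, rose in both arms although both groups had CIH. miR-210-3p was at 5.52 RPM in the lowest, 17.8 in the median and 69.0 in the highest MI+CIH heart, against 4.47, 4.76, 0.967 and 6.41 RPM in CIH hearts. The log2 change was 2.49 (SE 0.59, adjusted p = 0.00272) and 6 of 7 hearts, MI+CIH 1 among them at 17.1 RPM, were above every CIH heart. miR-210-5p, at 0.756 to 11.4 RPM in MI+CIH and 0 to 0.253 RPM in CIH hearts, changed by 2.28. With such CIH levels the 5p arm passed the filter through other hearts only, which favours a rise. With median-of-ratios scaling the 3p arm changed by 1.04 (adjusted p = 0.136) and the 5p arm by 1.44 (adjusted p = 0.00521). Without the set B hearts the 3p arm changed by 2.40 and stayed called (adjusted p = 0.00812), and the 5p arm by 1.12 and was not (adjusted p = 0.0956).

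**Figure D3:**
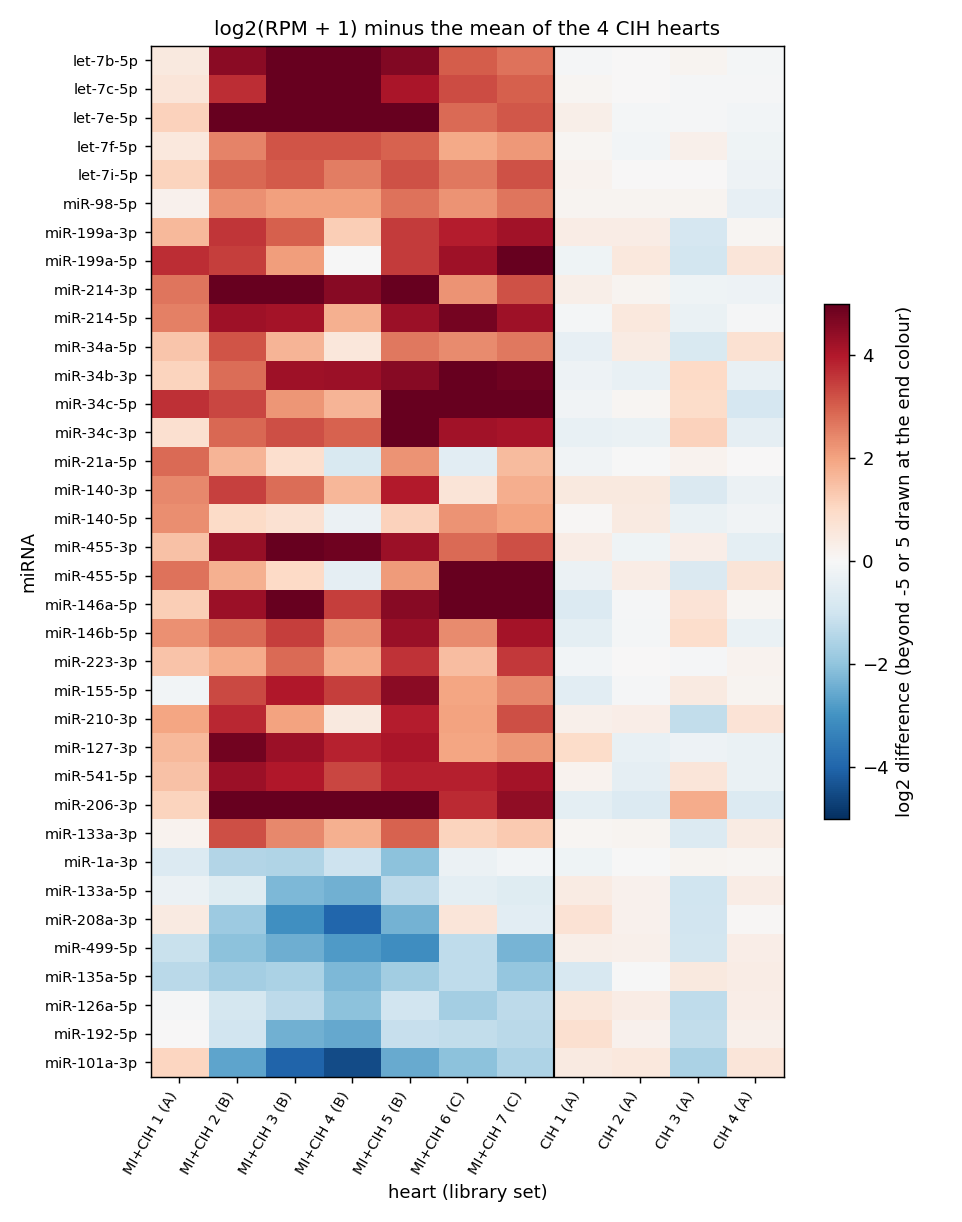
log2(RPM + 1) of 36 miRNAs in each heart minus the mean of the 4 CIH hearts, with the library set in brackets and values beyond 5 drawn at the end colour. MI+CIH 2 to 5 are the darkest hearts for let-7b-5p, let-7c-5p, let-7e-5p and miR-206-3p, MI+CIH 6 and 7 for miR-34b-3p, miR-199a-5p and miR-455-5p, and MI+CIH 1 for miR-21a-5p.

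The muscle miRNAs were the main group that did not follow the general rise. Of 10 tested members 2 rose, 3 fell and 5 did not pass the test, against 54.7% higher and 2.22% lower over all miRNAs. The median log2 change was -0.43, against 1.51 over all miRNAs. With median-of-ratios scaling the median was -2.02, with 1 called higher and 5 lower. Their summed level was 89544 to 269843 RPM in MI+CIH hearts and 253524 to 317903 RPM in CIH hearts, so the tissue label fitted its markers in both groups. The 3 entries that fell were miR-499-5p and the 2 miR-1 entries.

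miR-499-5p, encoded in an intron of the myosin gene Myh7b (chr2:155622880-155622958), was at 419 RPM in the lowest, 720 in the median and 1683 in the highest MI+CIH heart, against 4396, 4348, 1923 and 4598 RPM in CIH hearts. All 7 MI+CIH hearts lay below all 4 CIH hearts, and the lowest CIH heart was CIH 3. Its log2 change was -2.16 (SE 0.46, adjusted p = 0.00199), and -3.83 with median-of-ratios scaling. In MI+CIH 1 alone it was -1.10.

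miR-1a-3p, the most abundant miRNA of the heart, was at 69203 RPM in the lowest, 141425 in the median and 262684 in the highest MI+CIH heart, and at 245804, 281399, 314224 and 308132 RPM in CIH hearts. Its log2 change was -1.02 (SE 0.34, adjusted p = 0.0162), and 6 of 7 MI+CIH hearts were below every CIH heart. Without the set B hearts the change was -0.36 and not called (adjusted p = 0.379). miR-208a-3p, from an intron of Myh6, was at 3.01 to 93.2 RPM in MI+CIH and 30.9 to 100 RPM in CIH hearts (log2 change -1.52, adjusted p = 0.0720). It passed without MI+CIH 1 (log2 change -1.85, adjusted p = 0.0235) or MI+CIH 6 (-1.87, adjusted p = 0.0239) and with median-of-ratios scaling (-3.02, adjusted p = 0.0194), and turned to 0.18 without the set B hearts (adjusted p = 0.827). miR-208b-3p, from Myh7, the myosin that stressed mouse heart takes up again, had 3.52 to 99.3 RPM in MI+CIH and 3.87 to 34.3 RPM in CIH hearts (log2 change 0.16, adjusted p = 0.855), and the highest was MI+CIH 1.

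Members of the list that rose were miR-133a-3p and miR-206-3p. miR-133a-3p had 2776 to 23097 RPM in MI+CIH and 1533 to 3297 RPM in CIH hearts, a log2 change of 1.85 (adjusted p = 0.00903) that was 0.17 with median-of-ratios scaling and turned to -0.02 with TMM scaling, and it was 0.87 and not called without the set B hearts (adjusted p = 0.238). Its partner arm miR-133a-5p went the other way without passing the test, at 54.2 to 235 RPM in MI+CIH and 143 to 385 RPM in CIH hearts (log2 change -1.13, adjusted p = 0.0544). It was called lower with median-of-ratios scaling (-2.78, adjusted p = 0.00877), edgeR (adjusted p = 0.0194) and DESeq2 (adjusted p = 0.00316), and without any 1 of MI+CIH 1, 6 or 7, CIH 3, MI 2 or MI 3 (adjusted p between 0.0294 and 0.0483).

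miR-206-3p, a miRNA of skeletal rather than heart muscle, had the largest change of any miRNA with a mean of at least 50 RPM. It was at 2.44 RPM in MI+CIH 1, 217, 189, 89.9 and 437 RPM in MI+CIH 2 to 5, and 20.1 and 33.7 RPM in MI+CIH 6 and 7, against 0.140, 0, 4.74 and 0 RPM in CIH hearts. MI+CIH 1 lay inside the CIH range because of CIH 3, and the other 6 lay above it. All CIH hearts were under 5 RPM, so miR-206-3p passed the filter through other hearts only, which favours a rise. The log2 change was 5.31 (SE 1.26, adjusted p = 0.00272), 4.12 with median-of-ratios scaling (adjusted p = 0.0118), and 3.09 and not called without the set B hearts (adjusted p = 0.0908); by edgeR it was not called (4.25, adjusted p = 0.0814).

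The remaining lower miRNAs were few. miR-135a-5p was at 1.51 to 3.93 RPM in MI+CIH hearts and at 5.73, 10.4, 15.4 and 14.1 RPM in CIH hearts, without overlap, and fell by 1.68 on the log2 scale (SE 0.41, adjusted p = 0.00337). In MI+CIH 1 alone its change was -1.33.

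miR-101a-3p was at 284 RPM in the lowest, 1081 in the median and 13192 in the highest MI+CIH heart, against 8474, 8902, 2100 and 9642 RPM in CIH hearts. The highest was MI+CIH 1, above every CIH heart, and 5 of 7 lay below every CIH heart. The log2 change was -2.31 (SE 0.78, adjusted p = 0.0172), -3.99 with median-of-ratios scaling, and -0.85 without the set B hearts (adjusted p = 0.405). Leaving out CIH 2 or CIH 4 ended the call (adjusted p = 0.0501 and 0.0539), as did edgeR (adjusted p = 0.127), DESeq2 (adjusted p = 0.0615) and testing without the filter on low values (adjusted p = 0.0629). In MI+CIH 1 alone the change was 1.08, the opposite sign.

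miR-192-5p, a miRNA of liver, gut and kidney, was at 82.4 to 491 RPM in MI+CIH and 206 to 842 RPM in CIH hearts (log2 change -1.38, SE 0.51, adjusted p = 0.0257). miR-126a-5p, an arm of the endothelial miR-126, was at 287 to 1139 RPM in MI+CIH and 488 to 1764 RPM in CIH hearts (log2 change -1.17, SE 0.44, adjusted p = 0.0280), and miR-126b-3p repeats its reads. In both, 4 of 7 MI+CIH hearts lay below every CIH heart, and in both MI+CIH 1 was close to the CIH mean. The calls were lost without CIH 1, 2 or 4, with adjusted p between 0.0644 and 0.0966, and just missed the threshold without MI+CIH 3 for miR-192-5p (adjusted p = 0.0538) and without MI+CIH 4 for miR-126a-5p (adjusted p = 0.0505). Neither was called without the set B hearts (adjusted p = 0.245 and 0.158), with only the 2 groups in the model (adjusted p = 0.0621 and 0.0732) or without the filter on low values (adjusted p = 0.0739 for both). With median-of-ratios scaling both were called, at -3.04 and -2.85 (adjusted p = 0.00656 and 0.00298).

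Vessel and blood miRNAs gave no common direction. The endothelial list held 2 tested members, miR-126a-5p above and miR-126a-3p, which did not pass the test (log2 change 0.15, adjusted p = 0.855), and summed to 3162 to 50262 RPM in MI+CIH and 5976 to 10970 RPM in CIH hearts. The high sums were those of MI+CIH 6 and 7, at 50262 and 24768 RPM. Of the smooth muscle list 1 of 4 rose: miR-145a-5p had 1172 to 4813 RPM in MI+CIH and 450 to 1011 RPM in CIH hearts (log2 change 1.95, adjusted p = 0.00284; 0.28 with median-of-ratios scaling; 1.29 and not called without the set B hearts, adjusted p = 0.0861). Its cluster partner miR-143-3p, second only to miR-1, had 39387 and 31494 RPM in MI+CIH 6 and 7 and 146616 to 269317 RPM in the other 5, against 133678 to 245981 RPM in CIH hearts (log2 change -0.61, adjusted p = 0.367). It was called lower with median-of-ratios scaling (-2.28, adjusted p = 0.0104), TMM scaling (-2.48, adjusted p = 0.00800), edgeR (-2.03, adjusted p = 0.0253) and DESeq2 (-1.86, adjusted p = 0.00967), and its change was 0.12 without the 2 hearts of set C (adjusted p = 0.807).

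Of the erythroid list 3 of 6 rose, near the share over all miRNAs (54.7%), and none fell; all 3 were miR-486 entries, of which miR-486b-3p repeats the reads of miR-486a-5p. With median-of-ratios scaling 1 of the 6 was called, lower. miR-451a, the most specific red cell miRNA, was not among them, with 1076 to 5680 RPM in MI+CIH and 559 to 1950 RPM in CIH hearts (log2 change 1.21, adjusted p = 0.110; -0.47 with median-of-ratios scaling). miR-486a-5p, also abundant in muscle, had 300 to 10305 RPM in MI+CIH and 366 to 576 RPM in CIH hearts (log2 change 2.31, adjusted p = 0.0239; 0.63 and not called with median-of-ratios scaling, adjusted p = 0.459). Its call was lost without CIH 2 (adjusted p = 0.0501) or CIH 4 (adjusted p = 0.0633), its change was 0.57 without the set B hearts (adjusted p = 0.623), and MI+CIH 1 was below every CIH heart. The part of blood content in the other results was not tested.

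The lists of miR-30, miR-29, and miR-22 and miR-378, whose members are abundant in heart, stayed below the general shift. The miR-30 list gave 1 rise in 11 members, against 54.7% higher over all miRNAs, with a median of 0.42. The miR-29 list, known for repressing collagens, had 0 of 5 members called by limma (0 at unadjusted p under 0.05), 0 by edgeR and 1 by DESeq2, with a median of 0.34. The most abundant miR-29 member, miR-29a-3p, had 101 to 2066 RPM in MI+CIH and 115 to 342 RPM in CIH hearts (log2 change 1.06, adjusted p = 0.209). Without the set B hearts limma called 2 of the 5 miR-29 members, among them miR-29a-3p at 2.20 (adjusted p = 0.0368). For miR-22 and miR-378, 0 of 5 members passed by limma (1 at unadjusted p under 0.05) and 4 each by edgeR and DESeq2, with a median of -0.69. With median-of-ratios scaling 4 of the 11 miR-30, 1 of the 5 miR-29 and 4 of the 5 miR-22 and miR-378 members were called, all lower. The medians were then -1.26 for miR-30 and -1.09 for miR-29, opposite in sign to those in RPM, and -2.35 for miR-22 and miR-378, negative under both.

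miR-22-3p, which rises in hypertrophic heart muscle, was at 520 to 10542 RPM in MI+CIH and 6684 to 15041 RPM in CIH hearts (log2 change -1.63, adjusted p = 0.0646). Leaving out MI+CIH 1 (adjusted p = 0.0386), MI+CIH 2 (0.0398) or MI 4 (0.0347) brought it past the threshold. It was also called, with larger changes, with median-of-ratios scaling (-3.30, adjusted p = 0.00656), TMM scaling (-3.50, adjusted p = 0.00638), edgeR (-2.89, adjusted p = 0.0151) and DESeq2 (-2.73, adjusted p = 0.00161), and without the set B hearts (-2.74, adjusted p = 0.0223). miR-378a-3p, from a gene of mitochondrial metabolism, had 11763 to 68576 RPM in MI+CIH and 14413 to 48612 RPM in CIH hearts (log2 change 0.21, adjusted p = 0.723). The other entries among the 10 most abundant were miR-148a-3p at 0.60, miR-30d-5p at 0.42, miR-26a-5p at 0.74 and miR-30a-5p at 0.37 in log2 change. None passed the threshold in RPM over all hearts. With median-of-ratios scaling miR-378a-3p, miR-30d-5p and miR-26a-5p were called lower (-1.47, -1.26 and -0.94, adjusted p = 0.00877, 0.0194 and 0.0199). TMM scaling, edgeR and DESeq2 also called each of them lower. In RPM miR-26a-5p passed as higher without the set C hearts (1.09, adjusted p = 0.0141) or MI+CIH 7 (0.91, adjusted p = 0.0415). miR-148a-3p did so without the set B hearts (1.94, adjusted p = 0.0111). let-7f-5p was the 1 member of the 10 that rose, from the let-7 list above, with 6960 to 42346 RPM in MI+CIH and 4072 to 5649 RPM in CIH hearts.

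The imprinted Dlk1-Dio3 locus on chromosome 12, whose miRNAs are high in the embryo and low in adult tissue, rose broadly. Of 39 tested members 32 rose, against 54.7% higher over all miRNAs, and none fell, with a median log2 change of 2.0 against 1.51 over all miRNAs. With median-of-ratios scaling the median was 0.77 and 9 of the 39 were called, all higher, against 13.6% higher over all miRNAs. Within it, 28 entries in chr12:109709060-109743795 on the plus strand had 23 rises and a median of 1.91, and 8 entries in chr12:109585789-109595388 had 7 rises and a median of 2.25. In MI+CIH 1 all 39 members were above the CIH mean, with a median difference of 1.36, against 0.54 over all miRNAs in that heart. Without the set B hearts 18 of the 39 were called.

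miR-127-3p, the most abundant member, which lies opposite an exon of Rtl1, was at 661 RPM in the lowest, 3120 in the median and 6109 in the highest MI+CIH heart, against 411, 169, 182 and 173 RPM in CIH hearts (log2 change 3.26, SE 0.74, adjusted p = 0.00272). miR-541-5p had 14.2 to 105 RPM in MI+CIH and 3.00 to 7.25 RPM in CIH hearts (log2 change 3.58, SE 0.61, adjusted p = 0.000712). miR-337-5p had 6.83 to 107 RPM in MI+CIH and 1.01 to 3.21 RPM in CIH hearts (log2 change 3.79, adjusted p = 0.00122). The groups were apart in all 3, as in 17 of the 39 members and in 27.8% of all miRNAs. All 3 stayed called with median-of-ratios scaling. Without the set B hearts miR-127-3p changed by 1.93 and was not called (adjusted p = 0.0816), while the other two were.

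Epithelial miRNAs, which heart muscle itself hardly makes, rose in 9 of 11 tested members, against 54.7% higher over all miRNAs. Their median was 2.51 (0.89 with median-of-ratios scaling, 2 called, both higher). Their sums were small, at 242 to 1318 RPM in MI+CIH and 85.9 to 258 RPM in CIH hearts, and the ranges overlapped. miR-200c-3p had 5.83 to 237 RPM in MI+CIH and 2.0 to 12.4 RPM in CIH hearts (log2 change 3.55, adjusted p = 0.00351; 2.46 and not called without the set B hearts, adjusted p = 0.0753). miR-375-3p, of endocrine and epithelial cells, had 1.78 to 101 RPM in MI+CIH and 0.253 to 3.77 RPM in CIH hearts (log2 change 3.60, adjusted p = 0.00199). In both, the highest CIH heart lay above MI+CIH 1. The part of other tissue in the samples was not tested.

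Counts in the remaining lists are read against the 54.7% higher over all miRNAs. The Sfmbt2 intron cluster rose in 6 of 9 members (median 1.76), the miR-17/92 group in 4 of 9 (1.63), miR-23/27/24 in 5 of 9 (1.17), miR-221 and miR-222 in 3 of 4 (2.0), miR-132/miR-212 in 3 of 3 (1.51), the miR-15/16 family in 3 of 6 (1.06), the cluster of miR-322, miR-351 and miR-503 in 2 of 7 (0.95) and miR-26 in 2 of 4 (0.95). None of their members fell in RPM. Among the 6 Sfmbt2 entries that rose, miR-467d-3p repeats the reads of miR-467a-3p, and miR-467b-5p repeats those of miR-467a-5p, so these are fewer separate signals. With median-of-ratios scaling the calls in these 8 lists were 2 higher in the Sfmbt2 cluster, 1 higher in miR-221 and miR-222, 1 higher in the miR-15/16 family, 2 lower in miR-23/27/24, 2 lower in miR-26 and 1 lower in the miR-322 cluster. With the set B hearts left out limma called 2 Sfmbt2 members, 2 each of miR-17/92, miR-23/27/24 and miR-15/16, and 1 of the miR-322 cluster, but 0 of miR-132/miR-212, of miR-26 (0 at unadjusted p under 0.05 in both) and of miR-221 and miR-222 (1 at unadjusted p under 0.05). Both lists that follow lay well below the median of all miRNAs. The neural list had 0 of 3 members called by limma (1 at unadjusted p under 0.05) and 2 each by edgeR and DESeq2 (median 0.39), and the liver and gut list 1 fall in 4 (median 0.02). miR-574-5p, from an intron of Fam114a1 and in none of the lists, was among the 10 largest rises, with 14.4 to 508 RPM in MI+CIH and 4.13 to 5.17 RPM in CIH hearts (log2 change 3.90, adjusted p = 0.00272). Its change was 2.34 with median-of-ratios scaling (adjusted p = 0.0174), and 1.84 and not called without the set B hearts (adjusted p = 0.0956).

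**Figure D4:**
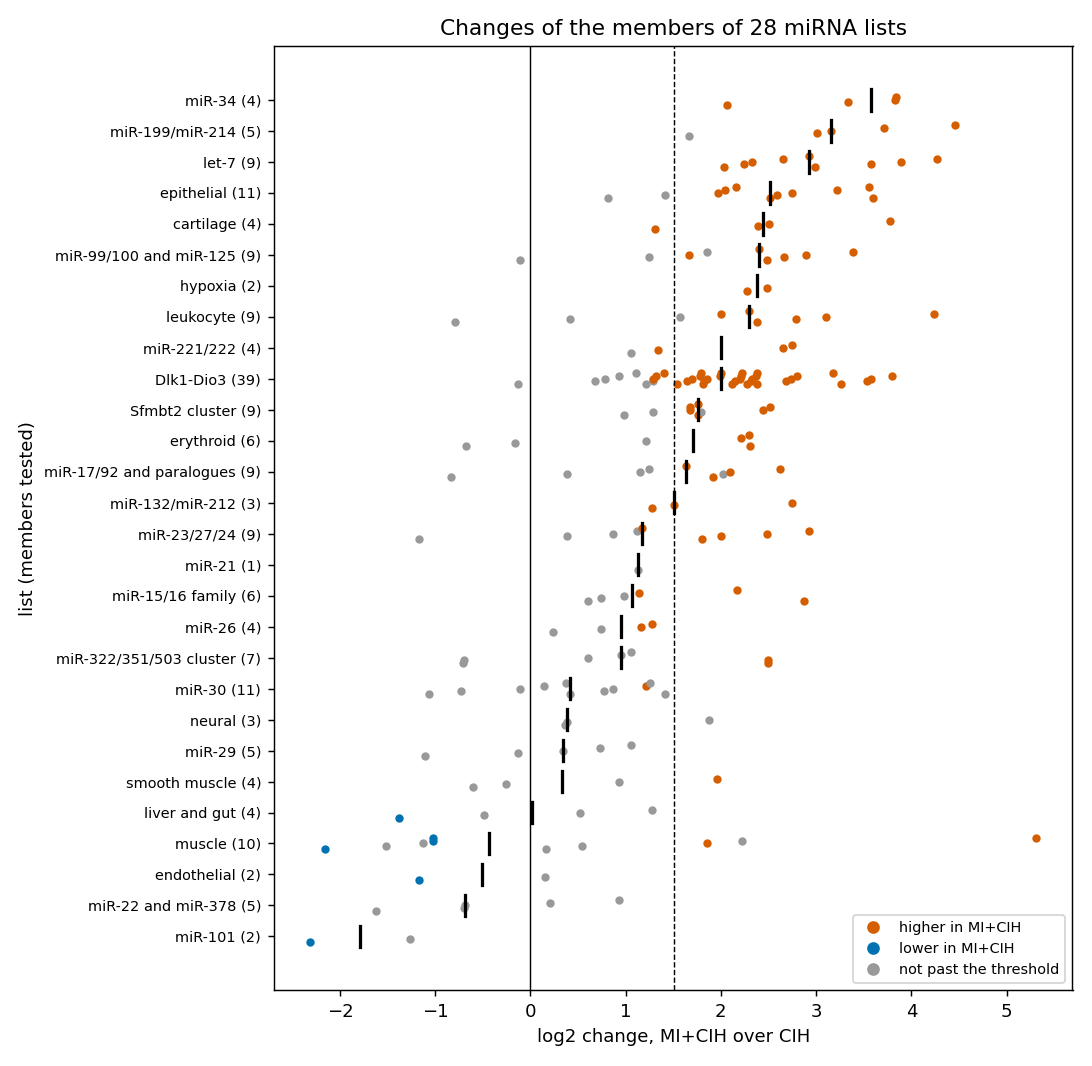
log2 change of MI+CIH over CIH for each tested member of 28 miRNA lists, ordered by list median (black bars), with the median of all 360 miRNAs (1.51) dashed. miR-34, miR-199/miR-214 and let-7 stand at the top, and muscle, endothelial, miR-22 and miR-378, and miR-101 have medians below 0.

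The 2 arms of a hairpin come from 1 precursor, yet they often differed. An arm that matched more than 1 hairpin was paired through the first only, and the source of its reads was not determined. Both arms were tested for 75 hairpins: both rose in 28, 1 rose and the other did not pass the test in 24, neither was called in 22, and in 1 hairpin 1 arm fell and the other did not pass. In 7 hairpins the changes had opposite signs. The widest gap was in let-7a, where the 5p arm rose by 2.93 while let-7a-1-3p changed by -0.90 without passing the test (adjusted p = 0.134), at 4.74 to 26.4 RPM in MI+CIH and 18.2 to 26.4 RPM in CIH hearts. let-7a-1-3p is named for 1 let-7a hairpin and let-7a-5p is not, so this gap need not lie within 1 precursor. miR-208a-5p and miR-208a-3p, at 2.22 and -1.52, and miR-27a-5p and miR-27a-3p, at 1.8 and -1.17, were the other wide gaps of opposite sign; these 3 pairs were picked for their size.

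Base composition moved with the change in set B hearts. Of the 360 miRNAs 306 matched a RefSeq mature sequence, and their GC content had a Pearson's r with the log2 difference from the CIH mean of 0.46, 0.46, 0.44 and 0.37 in MI+CIH 2 to 5, against -0.07 in MI+CIH 1 and -0.07 and -0.12 in MI+CIH 6 and 7. These are descriptions across 306 miRNAs that share a library and a common CIH mean. Split into 3 equal groups by GC, 40 of the 102 miRNAs in the lowest group rose (22.7 to 43.5% GC), 61 of 102 in the middle group and 74 of 102 in the highest group (52.4 to 100% GC). In MI+CIH 3 the median log2 difference was 0.92 in the lowest and 3.25 in the highest group, and in MI+CIH 1 it was 0.67 and 0.57. Its part in the calls was not tested.

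**Figure D5:**
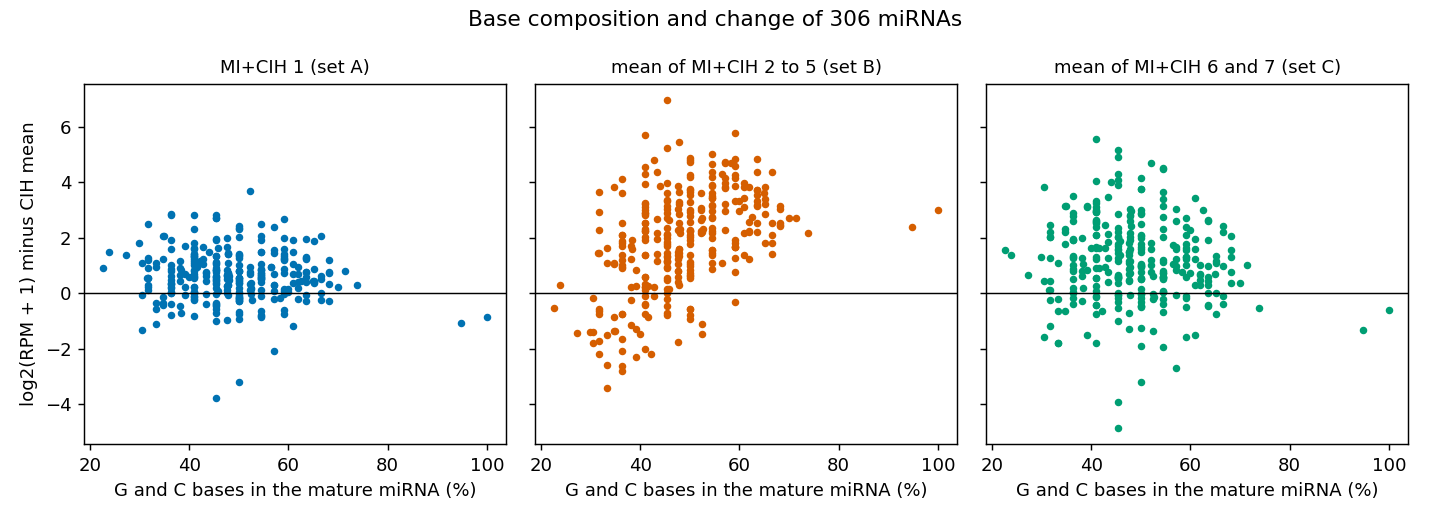
GC content of the matched mature miRNAs (%) against their log2(RPM + 1) minus the CIH mean, for MI+CIH 1, the mean of MI+CIH 2 to 5 and the mean of MI+CIH 6 and 7. A slope is seen in the middle panel only, where Pearson's r was 0.37 to 0.46 in the single hearts.

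Whether infarction acted differently on hearts with CIH than without was asked by setting this change beside that of MI against sham hearts, which share no sample with it. In MI against sham hearts limma called 0 of 360 (101 at unadjusted p under 0.05), edgeR on reads recovered from the RPM also 0 (72) and DESeq2 39, of which 35 were higher; the median log2 change was 0.94. Leaving out MI 2, which clustered with the sham hearts, gave 113 calls by limma. The difference between the 2 infarction changes passed the threshold for 0 miRNAs by limma (14 at unadjusted p under 0.05, smallest adjusted p = 0.880), 0 by edgeR (13) and 0 by DESeq2 (18).

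For the miRNAs named here the values of both comparisons were as follows. let-7c-5p changed by 3.58 in MI+CIH against CIH and by 2.52 (SE 0.75) in MI against sham, a difference of 1.06 (SE 1.03). miR-101a-3p changed by -2.31 and by -2.40 (SE 0.83), a difference of 0.09 (SE 1.14). miR-21a-5p had the smallest unadjusted p of the difference, 0.0183, with 1.13 in MI+CIH against CIH and -1.08 (SE 0.63) in MI against sham, a difference of 2.21 (SE 0.87, adjusted p = 0.880). It was at 20198, 17547, 15334 and 7732 RPM in MI hearts and at 100570, 17878, 23457, 28616 and 21109 RPM in sham hearts, so sham 1 stood apart and no MI heart had the level of MI+CIH 1.

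miR-34c-5p changed by 3.82 in MI+CIH against CIH and by 1.10 (SE 0.80) in MI against sham, a difference of 2.72 (SE 1.09, adjusted p = 0.880). miR-499-5p changed by -2.16 and by -0.74 (SE 0.50), a difference of -1.41 (SE 0.68, adjusted p = 0.880). miR-140-3p changed by 2.39 and by 0.31 (SE 0.61), a difference of 2.08 (SE 0.83, adjusted p = 0.880). None of these differences passed the correction, and with standard errors of this size differences of about 2 on the log2 scale could not be separated from the spread between hearts.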

How the data were processed

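The authors deposited 1 table of RPM values (headed tpm) with a column for each of 20 hearts; each column sums to 1e+06, so RPM here is reads of a miRNA per 1000000 miRNA reads. Libraries were made from total RNA with a small RNA kit, per the labels' protocols. Bowtie, DESeq 1.8.3 and the mm10 build are named in the submitters' processing notes, with no role given; counting rules are not given in the sources used here. All values were whole multiples of 1 step per library (100% within 0.05 reads), which gave the count of reads behind each value. Columns were matched to hearts by label.

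Entries that reached 5 RPM in 4 or more libraries (360) were tested with limma 3.58.1 (R 4.3.3, trend, two-sided) on log2(RPM + 1), with a mean for each of 4 groups over all 20 libraries (16 residual degrees of freedom) and Benjamini-Hochberg adjustment. A fold change on this scale understates the change of low miRNAs. A miRNA under 5 RPM in every CIH heart passed the filter through other hearts only, which favours a rise. Among those named, this holds for miR-34b-3p, miR-34c-3p, miR-206-3p, miR-210-5p, miR-214-5p, miR-337-5p and miR-375-3p. edgeR 4.0.16 and DESeq2 1.42.0 on the recovered counts, other scalings, pseudocounts and filters, a replicate block, a term for library set and leaving out libraries were alternatives. The fit was tested on simulated hearts without library sets and with equal numbers of rises and falls. That test could not judge the part of library set or of scaling in the calls here. Library sets are the 3 clusters by average linkage on 1 minus Pearson's r. In 12 pairs 1 entry repeats the reads of another within 5%, among them miR-1a-3p with miR-1b-5p, miR-126a-5p with miR-126b-3p, miR-142a-3p with miR-142b and miR-486a-5p with miR-486b-3p; which gene gave such reads is uncertain. The repeats made up 7.79 to 26.7% of the totals in MI+CIH libraries and 25.0 to 31.6% in CIH libraries. Read totals and RPM thus hold these reads under both entries of a pair. Members of the let-7 family are near-identical, and how reads were shared between them is not given.

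Among called miRNAs whose mean was 50 RPM or more, the text names the 10 largest rises, all 7 that fell and the 5 smallest p-values; it also names the 10 most abundant miRNAs and, whatever their mean, members of 28 lists; miR-135a-5p and the hairpin pairs were added after their values were seen. The members and lists were chosen with earlier results of these data known. Host genes come from GENCODE M21 and coordinates from mm10/GRCm38.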

Additional observations from a re-analysis of the deposited data

Results flagged for a closer look

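Single hearts stood apart from their group in 16 of 124 group values examined for the named miRNAs, by the gap to the nearest heart relative to the group's range; chance gives such a value in about 1 of 20 groups. CIH 3 accounted for 8 of them, highest for miR-206-3p (4.74 RPM), miR-34b-3p (2.71 RPM) and miR-34c-3p (2.32 RPM) and lowest for miR-101a-3p (2100 RPM), miR-499-5p (1923 RPM), miR-126a-5p (488 RPM), miR-133a-5p (143 RPM) and miR-29a-3p (115 RPM). MI+CIH 1 accounted for 5, lowest of its group for miR-541-5p (14.2 RPM), let-7i-5p (3012 RPM), let-7g-5p (1332 RPM), miR-98-5p (22.9 RPM) and miR-351-5p (7.77 RPM). CIH 4 was lowest for miR-98-5p (14.7 RPM) and highest for miR-210-5p (0.253 RPM), and CIH 1 was highest for miR-127-3p (411 RPM).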

How the results depend on the processing

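Against 205 miRNAs called in MI+CIH against CIH, limma called 94 of the 166 with a mean of at least 50 RPM, 97 with median-of-ratios scaling (49 higher, 48 lower), 90 with TMM scaling (37 higher, 53 lower), 0 with library set as a term, 0 with set A libraries alone and 80 without the MI+CIH hearts of set B. edgeR called 75 (38 higher, 37 lower) and DESeq2 133 (92 higher, 41 lower). Other pseudocounts, no filter, only the groups compared, repeated entries removed and the other omissions kept the count within 1.5 times, and leaving out 1 heart gave 162 to 234. For MI against sham, 0 in the main analysis, the count was 14 with a mean of at least 50 RPM, 39 with DESeq2, 31 without the MI+CIH heart of set A, 85 without those of set B, 114 without sham 1 and MI 2, 17 with the miR-1 entries left out, and 0 to 113 without 1 heart. For the difference between the infarction changes it was 0 without any 1 heart. Set A has only MI+CIH 1 and MI 2 as infarcted hearts, so a fit to it measures no spread between infarcted hearts. In that fit the log2 difference was 3.53 for miR-142a-3p and its repeat miR-142b, named after their values were seen. Leaving out MI+CIH hearts changed no MI or sham value, and the median change of MI against sham stayed at 0.94. What changed in those fits was the estimate of spread, which all groups share. The cause of the other shifts was not tested.

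MI+CIH and CIH share replicate numbers 1 to 4, but deviations of same-numbered hearts from their group means correlated at 0.27, -0.17, 0.51 and -0.39, and only number 3 matched its own number best, so the hearts share only a number. With the replicate number as a block limma called 173 (166 higher, 7 lower), and 0 in MI against sham; the block was not fitted for the difference between the 2.

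Of the 64 named changes, all had the same sign with pseudocounts of 0.5 and 5 RPM. With the sign kept, 16 lost and 6 gained a call with median-of-ratios scaling, 20 and 6 with TMM scaling, 22 and 3 with edgeR, and 10 and 4 with DESeq2. The following log2 changes turned sign. With median-of-ratios scaling these were miR-148a-3p -1.07, miR-378a-3p -1.47, miR-21a-5p -0.55, miR-30d-5p -1.26, miR-26a-5p -0.94, miR-30a-5p -1.31, miR-208b-3p -1.33, miR-451a -0.47, miR-142a-3p -0.79, miR-140-5p -0.33 and miR-29a-3p -0.61. With TMM scaling these were miR-148a-3p -1.27, miR-378a-3p -1.67, miR-21a-5p -0.74, miR-30d-5p -1.45, miR-26a-5p -1.13, miR-30a-5p -1.50, miR-208b-3p -1.52, miR-451a -0.66, miR-133a-3p -0.020, miR-142a-3p -0.97, miR-140-5p -0.52 and miR-29a-3p -0.80. With edgeR these were miR-148a-3p -0.18, miR-378a-3p -1.71, miR-30d-5p -1.41, miR-26a-5p -1.12, miR-30a-5p -1.02, miR-208b-3p -0.65 and miR-451a -0.69. With DESeq2 these were miR-148a-3p -0.10, miR-378a-3p -1.50, miR-30d-5p -1.24, miR-26a-5p -0.91, miR-30a-5p -0.94, miR-208b-3p -0.62 and miR-451a -0.51. With the miR-1 entries left out of the totals these were miR-148a-3p -0.071, miR-378a-3p -0.47, miR-30d-5p -0.26, miR-30a-5p -0.31, miR-208b-3p -0.47 and miR-142a-3p -0.23. With repeated entries removed these were miR-378a-3p -0.027 and miR-208b-3p -0.052. With the replicate block these were miR-143-3p 0.020, miR-148a-3p -0.028, miR-208b-3p -0.090, miR-142a-3p -0.70 and miR-29a-3p -0.048. With library set as a term these were miR-101a-3p 0.53, miR-143-3p 0.30, miR-378a-3p -0.38, let-7a-1-3p 0.21, miR-142a-5p 0.074 and miR-486a-5p -0.68. With set A libraries alone these were miR-101a-3p 1.08, miR-192-5p 0.010, miR-143-3p 0.43, miR-378a-3p -0.50, miR-26a-5p -0.0089, miR-208a-3p 0.47, let-7d-5p -0.0074, let-7a-1-3p 0.32, miR-155-5p -0.14, miR-142a-5p 0.94 and miR-486a-5p -0.68. Without the MI+CIH heart of set A this was miR-208b-3p -0.23. Without the MI+CIH hearts of set B these were miR-378a-3p -0.75, miR-30d-5p -0.0067, miR-26a-5p -0.089, miR-208a-3p 0.18, let-7a-1-3p 0.11 and miR-142a-5p 0.18. Without the MI+CIH hearts of set C these were miR-143-3p 0.12, miR-148a-3p -0.12 and miR-142a-3p -0.68. Without 1 heart, miR-378a-3p ranged from -0.10 to 0.48, miR-208b-3p from -0.46 to 0.52 and miR-142a-3p from -0.12 to 0.89. Depth limits miRNAs of a few RPM, where the shallowest MI+CIH library counts 1 read as 0.502 RPM.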
